A study of Mus musculus with 6 samples.

Results

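The molecular chaperone genes of the mouse were followed through fully grown oocytes in 3 settings: a control group, exposure to the dye Sudan I, and the same exposure with melatonin. The set was defined by gene symbol alone: every row of the count table whose symbol began with Dnaja, Dnajb, Dnajc, Hspa, Hspb or Hsp90, together with Hspd1, Hspe1, Hsph1, Tcp1 and the Cct genes numbered from 2 to 8. Hspa5, Hspbp1, Hspbap1 and symbols of pseudogenes were left out by the same rule. This gave 81 chaperone genes among 24369 rows. Of these, 76 had at least 1 read and 69 had enough reads to be tested, beside 14124 rows tested in all. None of the 69 passed the test across all genes in any of the 3 comparisons. The smallest p belonged to Cct6a, a subunit of the CCT chaperonin, whose level was 0.548 times that of control in the melatonin group and which did not reach the threshold after adjustment.

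Each library held the RNA of mouse oocytes at the germinal vesicle stage, when the oocyte is arrested in the first meiotic prophase and lives on stored transcripts. There were 3 groups with 2 libraries each: controls, oocytes exposed to Sudan I, which is a synthetic azo dye, and Sudan I-exposed oocytes with melatonin as a rescue. All groups shared the oocyte stage and the kind of library. Dose, route and length of exposure, the strain and age of the mice, and the number of oocytes behind a library are each not given in the labels or other sources used here. The labels are silent on whether replicate libraries stand for different mice or pools, so p-values reflect only library-to-library spread, which may be technical. With 2 libraries against 2, an exact permutation test cannot give a two-sided p below 0.333, and none was used.

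Chaperones bind unfolded proteins and help them reach or keep their folded state. HSP70 proteins bind short exposed stretches in a cycle of ATP hydrolysis, J-domain proteins (the DNAJ genes) bring them substrates and start the hydrolysis, and HSP110 proteins exchange the nucleotide that ends the cycle. HSP90 completes the folding of kinases and receptors, the CCT ring encloses actin and tubulin, the Hspd1 and Hspe1 chaperonin works in the mitochondrial matrix, and small HSPs hold unfolded proteins without ATP. In mouse oocytes the heat shock factor HSF1 is known to drive Hsp90aa1, whose product supports the meiotic cell cycle.

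The libraries held 20669373 to 26065453 counts. Levels are given in CPM, the usual depth-scaled count, scaled to the tested genes with a trimmed-mean factor. All 12 oocyte markers were detected in every library and summed to 26011 to 28710 CPM. The granulosa and cumulus markers summed to 641 to 704 CPM, with 13 of 14 tested. Of those 13, 6 had a positive fold change with Sudan I against control, and 2, Wt1 and Amh, were lower there at an unadjusted p under 0.05. Theca, stroma and surface epithelium markers summed to 10.2 to 15.2 CPM, most of it Krt8, with 5 of 10 tested. Of those 5, 3 had a positive fold change with Sudan I against control. Cyp17a1 and Col3a1 were higher there at an unadjusted p under 0.05, neither above 0.963 CPM in any library. Endothelial markers summed to 103 to 131 CPM, most of it Pecam1, with 3 of 4 tested and Cdh5 at or below 0.225 CPM in every library. Tek was lower with melatonin than with Sudan I at an unadjusted p under 0.05. Blood and immune markers summed to 0.857 to 1.5 CPM, with both hemoglobin genes, Hba-a1 and Hbb-bs, at 0 counts. The granulosa sum came mostly from Serpine2, Nr5a2, Esr2 and Gata4. Single granulosa markers, chosen here after their values were seen, varied more than the sum. Those given next had negative fold changes with Sudan I, unlike 6 of the 13 tested. Wt1, a transcription factor, was at 2.87 and 5.87 CPM in the control libraries, 0.921 and 1.89 in the Sudan I libraries and 1.28 and 1.39 in the melatonin libraries, below control in every exposed library. The hormone genes Amh and Inha were at 19.2 and 21.2 CPM (control), 7.87 and 6.85 (Sudan I) and 5.24 and 21.7 (melatonin), and at 41.8 and 56.7 CPM (control), 41.5 and 21.1 (Sudan I) and 27.8 and 92.9 (melatonin), with melatonin library 2 highest for both. The part of these cells in the differences below was not tested. Log2 CPM over all tested genes correlated at 0.991 to 0.993 within groups and at 0.990 to 0.995 between groups.

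Heat shock genes are classically switched on through heat shock elements, inverted repeats of GAA to which heat shock factors bind. Of the 81 chaperone genes, 66 had at least 1 promoter window in the RefSeq table of build GRCm38.p6, each running from 250 bases before to 50 bases after the annotated start. The remaining genes, Hsp90aa1, Hsp90ab1 and Hspa8 among them, had no window there and were not searched. The 2-unit element was searched as GAANNTTC or TTCNNGAA and the 3-unit element as GAANNTTCNNGAA or TTCNNGAANNTTC. Each 2-unit string is its own reverse complement, and the 3-unit strings are reverse complements of one another, so both strands were covered. A 3-unit element contains 2 overlapping 2-unit elements. A gene was counted when any of its windows held the letters. By that count 20 of the 66 genes (30.3%) had a 2-unit element, beside 17.0% of the 27025 genes in the table. Cct2, Cct5, Dnaja1, Dnaja4, Dnajb4, Hspb6 and Hspd1 each also had a window without one. The 3-unit element was found for 4 of 66 genes (6.06%), Hsph1, Hspd1, Hspe1 and Dnajb6, beside 0.662% of all genes. Hspd1 and Hspe1 hold it in the same stretch of DNA, read from opposite strands. A match describes letters only and is no record of binding.

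The windows below are shown because they hold the densest elements or belong to near-identical genes. Each reads 5′ to 3′ on the strand of the gene, and capitals mark the letters of 2-unit elements. Hspe1 lies at chr1:55087898-55088197, forward strand, Hsph1 at chr5:149636266-149636565, reverse strand, Hspa1a at chr17:34972107-34972406, reverse strand, and Hspa1b at chr17:34959189-34959488, reverse strand, all in GRCm38.p6.
Hspe1: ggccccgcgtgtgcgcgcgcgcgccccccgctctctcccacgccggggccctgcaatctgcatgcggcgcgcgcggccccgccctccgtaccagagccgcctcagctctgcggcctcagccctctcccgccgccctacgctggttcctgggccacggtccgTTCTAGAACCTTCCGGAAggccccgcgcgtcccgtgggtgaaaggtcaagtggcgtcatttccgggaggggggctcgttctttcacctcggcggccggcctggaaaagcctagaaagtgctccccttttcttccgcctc
Hsph1: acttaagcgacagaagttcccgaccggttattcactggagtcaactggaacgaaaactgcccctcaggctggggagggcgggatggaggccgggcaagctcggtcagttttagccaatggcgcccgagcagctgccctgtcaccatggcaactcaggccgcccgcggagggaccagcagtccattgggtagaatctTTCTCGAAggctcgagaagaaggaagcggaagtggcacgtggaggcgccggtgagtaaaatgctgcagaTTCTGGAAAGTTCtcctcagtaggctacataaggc
Hspa1a: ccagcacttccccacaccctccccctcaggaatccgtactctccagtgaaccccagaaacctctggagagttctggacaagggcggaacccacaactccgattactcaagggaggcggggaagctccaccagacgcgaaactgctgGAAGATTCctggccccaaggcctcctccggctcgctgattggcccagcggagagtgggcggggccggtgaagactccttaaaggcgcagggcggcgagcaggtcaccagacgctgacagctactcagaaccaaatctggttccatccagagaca
Hspa1b: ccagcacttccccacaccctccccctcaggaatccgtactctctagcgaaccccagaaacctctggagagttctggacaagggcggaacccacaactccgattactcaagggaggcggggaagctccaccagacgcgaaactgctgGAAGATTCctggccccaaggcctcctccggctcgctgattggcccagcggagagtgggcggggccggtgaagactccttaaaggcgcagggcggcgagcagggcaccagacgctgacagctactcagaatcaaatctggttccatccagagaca
The Hspe1 window held 3 overlapping 2-unit elements, the first beginning 89 bases before the start. Hspd1 is read from the opposite strand and has 2 windows: 1 shares 285 bases with the Hspe1 window, this block of elements included, and the other holds no element. In the Hsph1 window printed here a single 2-unit element began 54 bases before the start and the 3-unit element 15 bases after it. The Hspa1a and Hspa1b windows differed at 4 of 300 bases, and both held 1 element 104 bases before the start.

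**Figure D1:**
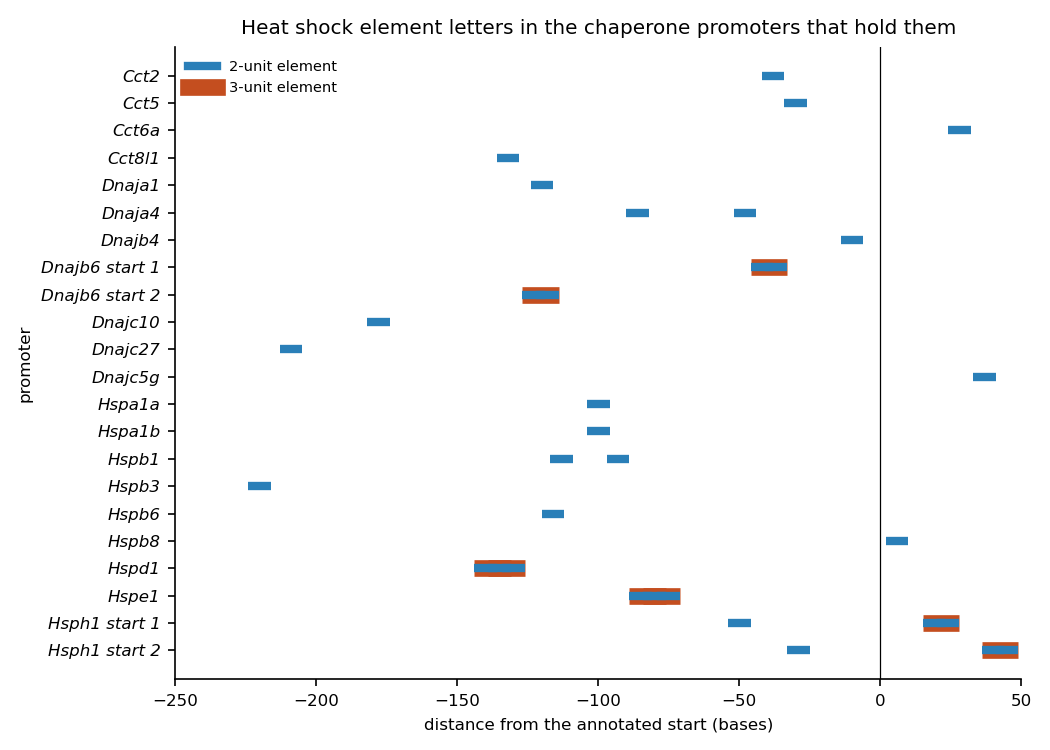
Positions of heat shock element letters (x axis, bases from the annotated start) in the RefSeq promoter windows of the chaperone genes that hold them (y axis). Blue bars are 2-unit elements and orange bars 3-unit elements, which lie in windows of Hsph1, Hspd1, Hspe1 and Dnajb6.

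Chaperone genes together held 1.06% to 1.16% of the counts of a library. Their levels spanned a wide range: 27 averaged at least 100 CPM over the 6 libraries, 21 lay between 10 and 100, 18 between 1 and 10, and 15 under 1. The 10 genes with most reads held 57.4% of the chaperone reads. To compare genes, levels were divided by the exon length in the GENCODE M21 annotation (GRCm38). Hsp90aa1 was first at 591 ± 52.1 CPM per kb (SD, n = 6), followed by Hsp90ab1 at 278 ± 12.4, Hspa8 at 268 ± 18, Cct5 at 219 ± 11.8 and Dnajc11 at 187 ± 9.95. Hsp90ab1 and Hspa8 did not differ beyond their spread, and sequence that Hspa8 shares with other genes leaves its level uncertain. The same 10 genes led the order when the longest transcript was used as the length.

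**Figure D2:**
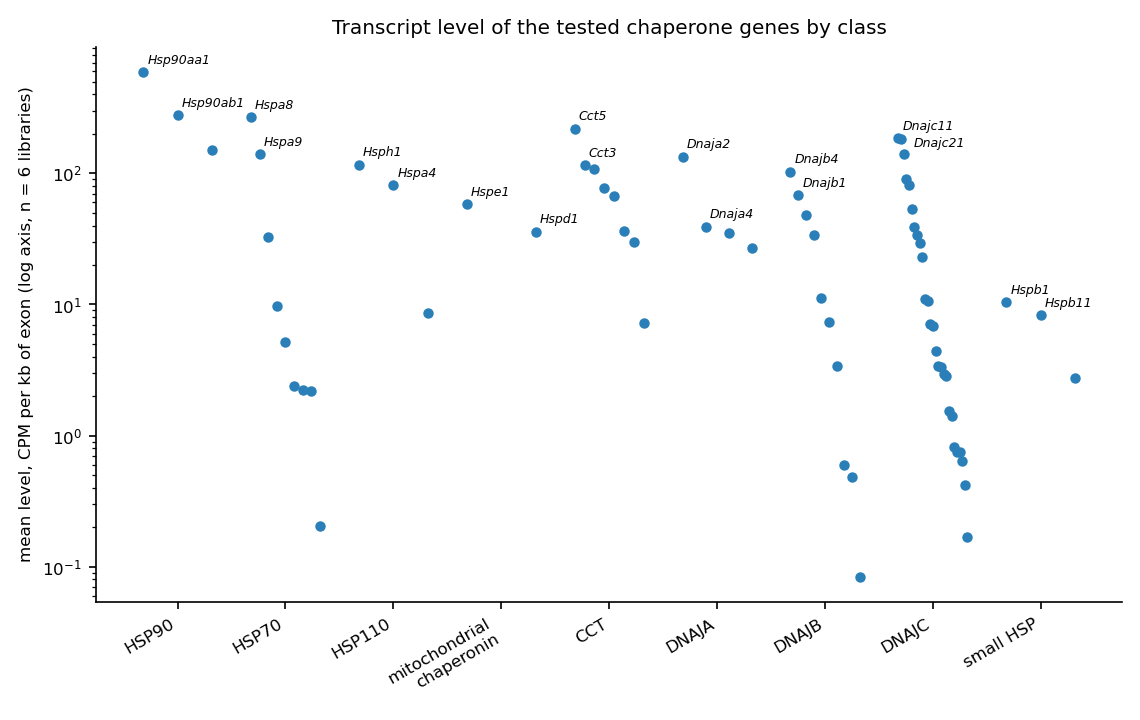
Mean level of each of the 69 tested chaperone genes over 6 libraries (y axis, CPM per kb of exon, log axis), sorted within its class (x axis), with the first genes of each class named. Hsp90aa1 stands highest at 591 CPM per kb, and the HSP70, DNAJB and DNAJC classes span the widest ranges.

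Chaperone levels varied little between libraries. Over the 55 tested chaperone genes with a mean of at least 5 CPM, the median coefficient of variation across the 6 libraries was 7.98%, from 2.74% to 34.2%, and 40 genes (72.7%) were under 10%. Over all 9676 tested genes with a mean of at least 5 CPM the median was 10.3% and 48.0% were under 10%. Beyond that floor the sets were not matched by level, and 27 chaperone genes averaged at least 100 CPM. The lowest variation belonged to Dnaja2, a cytosolic J-domain partner of HSP70, at 397 and 379.9 CPM in the control libraries, 394 and 384 in the Sudan I libraries and 388 and 409.9 in the melatonin libraries. The highest, among the 55, belonged to Cct6a.

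Among the HSP90 genes, Hsp90aa1, the inducible cytosolic form, was at 2043 and 2199.7 CPM in the control libraries, 2109 and 2075 in the Sudan I libraries and 1784 and 1778 in the melatonin libraries. Both melatonin libraries lay below all 4 others. Hsp90ab1, the constitutive cytosolic form, was at 691 and 716 CPM in the control libraries, 724 and 669 in the Sudan I libraries and 667 and 744 in the melatonin libraries, and its groups overlapped throughout. The ratio of Hsp90aa1 to Hsp90ab1 counts was 2.96 and 3.07 in the control libraries, 2.91 and 3.10 in the Sudan I libraries, and 2.67 and 2.39 with melatonin. Hsp90b1, the HSP90 of the endoplasmic reticulum, was at 418 and 493 CPM in the control libraries, 461 and 384 in the Sudan I libraries and 406 and 398 in the melatonin libraries, where both melatonin libraries lay below both controls and within the range of the Sudan I pair. By 50-base words, 58.5% of the Hsp90aa1 transcript also occurs in transcripts of other genes, most of it in Gm12346. How the counting divided such reads is not given in the sources used here, so the Hsp90aa1 level is uncertain in that respect.

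In the HSP70 class, the constitutive cytosolic Hspa8 was at 669.6 and 650.3 CPM in the control libraries, 582 and 690.2 in the Sudan I libraries and 595 and 658 in the melatonin libraries. Hspa9, the mitochondrial HSP70 that pulls proteins across the inner membrane, was at 411 and 434 CPM in the control libraries, 423 and 456 in the Sudan I libraries and 407 and 426 in the melatonin libraries. The groups of both genes overlapped in all 3 comparisons. Hspa14, a ribosome-bound HSP70, ran from 56.4 to 63.2 CPM, and Hspa2, the HSP70 known from male meiosis, from 4.65 to 7.35 CPM.

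The stress-inducible pair stood far below Hspa8 per kb of exon, Hspa1b at 5.15 ± 0.942 CPM per kb and Hspa1a at 2.21 ± 0.682 (SD, n = 6). Hspa1b was at 11.9 and 11.8 CPM in the control libraries, 15.2 and 18.9 in the Sudan I libraries and 13.8 and 15.0 in the melatonin libraries. Both Sudan I libraries exceeded all other libraries, and both melatonin libraries exceeded both controls. Hspa1a was at 5.56 and 4.46 CPM in the control libraries, 4.48 and 9.24 in the Sudan I libraries and 7.41 and 8.24 in the melatonin libraries, with Sudan I library 1 at the level of the controls and Sudan I library 2 the highest of all. The 2 genes lie on chromosome 17, share 62.3% to 66.3% of their transcript words with other genes, chiefly with each other, and reads may have been split between them. Their summed level was 17.5 and 16.2 CPM in control, 19.7 and 28.2 CPM with Sudan I, and 21.2 and 23.2 CPM with melatonin, so both treated groups lay above control in every library.

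The HSP110 genes encode nucleotide exchange factors of HSP70. Hsph1 was at 471 and 672 CPM in the control libraries, 443 and 509 in the Sudan I libraries and 445 and 418 in the melatonin libraries. Control library 2 was the highest, and the other 5 libraries lay between 418 and 509 CPM. Hspa4 was at 388 and 409.9 CPM in the control libraries, 390.2 and 374 in the Sudan I libraries and 343 and 348 in the melatonin libraries, both melatonin libraries being below all 4 others. Hspa4l, the third gene of the class, was at 84.3 and 80.7 CPM in the control libraries, 85.7 and 92.4 in the Sudan I libraries and 79.9 and 75.4 in the melatonin libraries. Its melatonin values again lay below the other 4, by a narrow margin. The sum of the class was 944 and 1162 CPM in control, 919 and 976 with Sudan I, and 868 and 841 with melatonin.

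The mitochondrial chaperonin is a barrel of Hspd1 protein with a lid of Hspe1 protein. Hspd1 was at 92.0 and 91.6 CPM in the control libraries, 88.1 and 83.2 in the Sudan I libraries and 81.8 and 85.3 in the melatonin libraries, each exposed library being below both controls. Hspe1 was at 41.9 and 44.4 CPM in the control libraries, 44.5 and 48.5 in the Sudan I libraries and 42.5 and 48.8 in the melatonin libraries, and here both Sudan I libraries lay just above the controls while the melatonin libraries overlapped them. The count ratio of Hspd1 to Hspe1 was 2.20 and 2.06 in control, 1.98 and 1.72 with Sudan I, and 1.92 and 1.75 with melatonin. The 2 genes face one another across the shared promoter stretch shown above, and their log2 fold changes in Sudan I versus control were -0.10 (SE 0.10) and 0.11 (SE 0.14), neither past the test. Of each transcript, 44.8% of words recur in transcripts of other genes.

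CCT is a double ring in which each of 8 subunits takes 1 fixed place per ring, yet its transcripts were not equally abundant. Per kb of exon, Cct5 stood at 219 ± 11.8 CPM (SD, n = 6), Cct3 at 115 ± 7.12, Cct2 at 108 ± 5.32, Cct8 at 76.9 ± 2.75 and Tcp1 at 67.1 ± 3.59. Lower came Cct7 at 36.3 ± 2.90, Cct4 at 29.9 ± 6.36 and Cct6a at 7.26 ± 2.48. With exon length, the spreads of Cct3 and Cct2 overlapped, as did those of Cct7 and Cct4, although Cct7 was above Cct4 in each of the 6 libraries. With the longest transcript as the length, Cct3 stood at 132 ± 8.20 and Cct2 at 113 ± 5.58, apart by more than their spreads, and Tcp1 at 78.4 ± 4.20 came level with Cct8 at 77.0 ± 2.76. Cct6a was the lowest of the 8 in every library.

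Cct6a, the zeta subunit, was at 19.6 and 29.3 CPM in the control libraries, 14.8 and 16.5 in the Sudan I libraries and 12.8 and 14.0 in the melatonin libraries. The controls were both above the other 4 libraries, and control library 2 was the highest by a wide margin. Cct4, the delta subunit, was at 71.9 and 88.6 CPM in the control libraries, 63.6 and 98.5 in the Sudan I libraries and 60.5 and 62.0 in the melatonin libraries, with the melatonin libraries below the rest and the Sudan I libraries far apart. Of the 6 other subunits, Cct5 was at 396 and 386 CPM (control), 390.3 and 413 (Sudan I) and 403 and 446 (melatonin), both melatonin libraries being above both controls. Tcp1, the alpha subunit, was at 188 and 185 CPM (control), 206 and 195 (Sudan I) and 178 and 199.9 (melatonin), both Sudan I libraries being above both controls. Cct7 was lower in both melatonin libraries than in both controls, and the Sudan I libraries lay on either side of the controls. In GENCODE M21, Cct6a (chromosome 5, 129786998 to 129846371, forward strand) is listed as a processed transcript with a sequence error in the assembly, the only such case among the 81. Its exons overlap those of Psph on the opposite strand over 18.4% of their length, and library strand is not given in the sources used here. Exons on the opposite strand also overlap 20.6% of the exon length of Tcp1, 8.77% of Cct7 and 8.01% of Cct8.

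**Figure D3:**
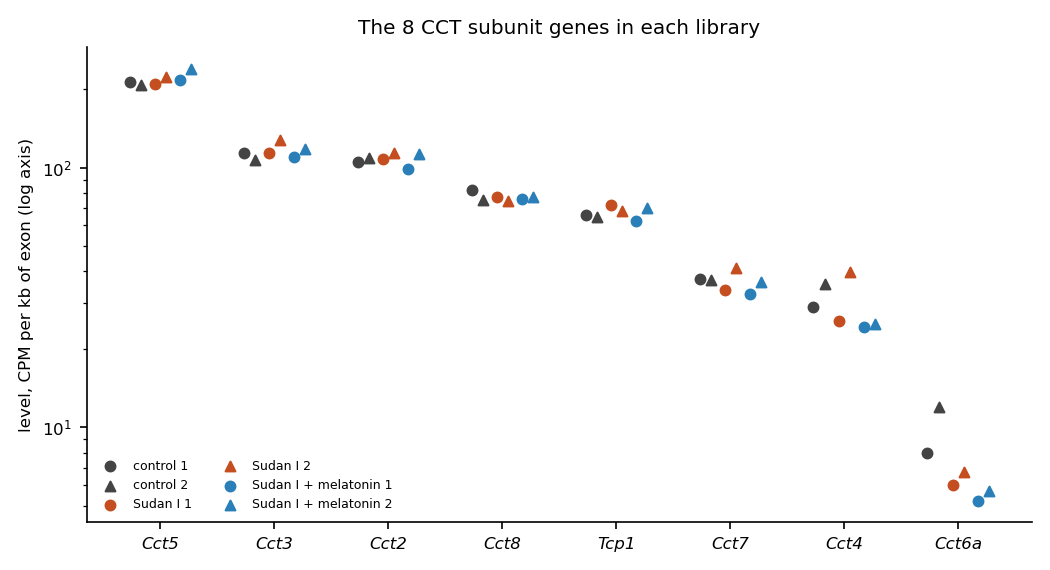
Level of the 8 CCT subunit genes in each of the 6 libraries (y axis, CPM per kb of exon, log axis), ordered by mean level (x axis). Colours are groups and shapes are libraries 1 and 2. Cct5 is highest and Cct6a lowest in every library, and the Cct6a controls lie above the other 4 points.

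J-domain proteins select the work that HSP70 does. In the DNAJA class, Dnaja1 was at 167 and 149 CPM in the control libraries, 156 and 161 in the Sudan I libraries and 158 and 148 in the melatonin libraries and its groups overlapped. The class as a whole summed to 777 to 791 CPM in every library. Dnajb1, the main inducible partner of cytosolic HSP70, was at 202 and 223 CPM in the control libraries, 199.8 and 250.1 in the Sudan I libraries and 219.8 and 211 in the melatonin libraries, its groups overlapping. Dnajb6, known for holding back protein aggregation, was at 221 and 189 CPM in the control libraries. It was at 217 and 214 CPM in the Sudan I libraries and 198 and 229 in the melatonin libraries, also with overlap. Other genes share 42.8% of the Dnajb6 transcript words, which leaves its level uncertain. With the count filter, none of the 4 genes with a 3-unit element passed the test, beside 1, 0 and 1 of 14124 genes in the 3 comparisons. With so few calls among all genes, this cannot tell whether the element matters. With no count filter Hsph1 passed in melatonin versus control.

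DNAJC proteins are tied to particular places in the cell. Dnajc11, a mitochondrial membrane protein, and Dnajc21, which acts in ribosome biogenesis, were the highest of the class per kb. They stood at 187 ± 9.95 and 184 ± 11.1 CPM per kb and did not differ beyond their spread. Dnajc21 was the higher in control library 1 and Sudan I library 1. Dnajc1, an endoplasmic reticulum membrane protein that binds ribosomes, was at 62.5 and 72.9 CPM in the control libraries, 57.4 and 58.6 in the Sudan I libraries and 52.1 and 51.4 in the melatonin libraries. The 3 groups did not overlap, control being highest and melatonin lowest. Dnajc8, a splicing factor, was at 187 and 172 CPM in the control libraries, 189 and 202 in the Sudan I libraries and 200.1 and 225 in the melatonin libraries, with both melatonin libraries above both controls. Dnajc15, of the mitochondrial inner membrane, was at 7.61 and 8.96 CPM in the control libraries, 7.62 and 9.29 in the Sudan I libraries and 9.88 and 13.4 in the melatonin libraries, the melatonin libraries being highest. Dnajc2 and Dnajc7, partners of HSP70 at the ribosome and of HSP90, ran from 91.6 to 105 CPM and from 204 to 220.1 CPM.

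Genes with an Hspb symbol were scarce in these oocytes. They were classed as small HSPs by symbol alone, which does not show what each protein, that of Hspb11 included, does. Among these genes, Hspb1 stood at 10.4 ± 2.85 CPM per kb (SD, n = 6) and Hspb11 within that spread at 8.28 ± 1.03. Hspb1, the best known of them, was at 12.8 and 6.29 CPM in the control libraries, 13.5 and 12.7 in the Sudan I libraries and 11.0 and 7.96 in the melatonin libraries, with control library 2 lowest. Other genes share 51.6% of its transcript words. Of the 8 genes, 3 were tested. No read was counted for Hspb2, Hspb7, Dnajb7, Dnajb8 or Cct8l1 in any library. A count of 0 still allows 3 counts, which is 0.114 to 0.148 CPM per library, and covers counting error only. A further 7 genes had some reads but too few to be tested: Cct6b, Dnajb3, Dnajc12, Hspa12b, Hspb3, Hspb8 and Hspb9. Cct6b, the testis form of the zeta subunit, was at or below 0.327 CPM in all libraries, so Cct6a carried nearly all zeta subunit reads.

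**Figure D4:**
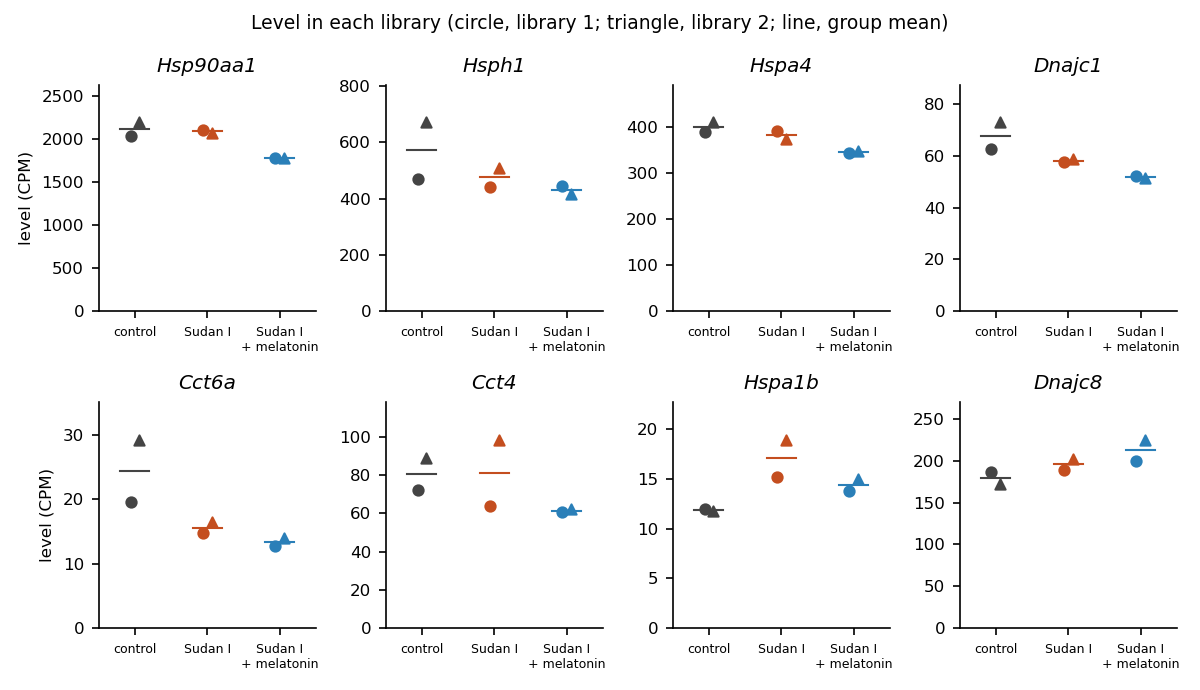
Level of 8 chaperone genes in each library (y axis, CPM, from 0), by group (x axis). Circles are library 1, triangles library 2 and lines the mean of 2 libraries. Both melatonin libraries lie below all others for Hsp90aa1, Hspa4, Dnajc1, Cct6a and Cct4, and control library 2 stands alone for Hsph1.

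Sudan I was compared with control to ask whether dye exposure altered chaperone transcripts. With edgeR, 0 of 69 chaperone genes passed an adjusted p of 0.05, beside 1 of 14124 genes (0.00708%), and the smallest adjusted p of a chaperone gene was 0.9999. DESeq2 and limma-voom called 0 chaperone genes too. At an unadjusted p under 0.05 there were 2 of 69 (2.9%), Hspa1b above and Cct6a below control, beside 3.16% of all genes, 1.61% above and 1.55% below. The number of such chaperone genes changed when single libraries were left out, and the share of all genes in those fits was not computed. Libraries of the groups did not overlap for 20 chaperone genes (29%), beside 32% of all genes. Of the 20, 11 were above and 9 below control, beside 16.1% and 15.9% of all genes. Among the 69, 41 had a positive fold change (59.4%), beside 49.4%. The median log2 fold change was 0.02 over the chaperone genes and -0.002 over all. In bulk RNA, fewer cells of a type and less RNA per cell cannot be told apart, which applies to every level here.

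Of the genes with the smallest p in Sudan I versus control, Cct6a had a log2 difference of -0.64 (SE 0.21, 95% interval -1.11 to -0.18) and Hspa1b of 0.52 (SE 0.19, 95% interval 0.11 to 0.94), the edgeR adjusted p being 0.9999 for both. Without control library 2 the Cct6a value was -0.32, and without Sudan I library 2 the Hspa1b value was 0.36. With the reads of Hspa1a and Hspa1b added together, a choice made after seeing the data, the fold change was 0.50 (SE 0.19, edgeR adjusted p = 0.9999). Dnajc1 had -0.22 (SE 0.13) and Dnajb12, a J-domain protein of the endoplasmic reticulum membrane at 22.4 to 27.3 CPM, had 0.21 (SE 0.15). Dnajc1 moved to -0.11 without control library 2. Hsph1 had -0.26 (SE 0.15, 95% interval -0.60 to 0.07), and Hspb1 had 0.46 (SE 0.31, 95% interval -0.23 to 1.15). Both rested on control library 2, without which Hsph1 turned to 0.02 and Hspb1 came to 0.03.

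For several genes with many reads the fit gave narrow 95% intervals, which cover library-to-library spread only. Of these genes, Hsp90aa1, Hspa8 and Dnaja1 share 58.5%, 74.8% and 28.8% of their transcript words with other genes. The Hsp90aa1 fold change was -0.02 (SE 0.09, 95% interval -0.22 to 0.18), that of Hspa8 -0.05 (SE 0.11, 95% interval -0.30 to 0.19), that of Cct5 0.04 (SE 0.10, 95% interval -0.18 to 0.26) and that of Dnaja1 0.01 (SE 0.10, 95% interval -0.22 to 0.23). The 95% interval stayed within 1 log2 unit of 0 for 56 of 69 chaperone genes (81.2%), beside 69.9% of all genes. Hspa1a was among the exceptions at 0.45 (SE 0.34, 95% interval -0.29 to 1.20). Such shares were not matched by level, here or in the comparisons below.

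The comparison of the melatonin group with the Sudan I group asks what melatonin changed in exposed oocytes. EdgeR called 0 of 69 chaperone genes, beside 0 of 14124 (0%), with adjusted p of at least 0.994. At an unadjusted p under 0.05 stood 2 chaperone genes (2.9%), Hsp90aa1 lower and Dnajb13 higher, beside 3.83% of all genes, 2.05% lower and 1.78% higher. That number fell when some single libraries were left out, again with no share of all genes to set beside it. DESeq2 and limma-voom again called 0 chaperone genes. Libraries did not overlap for 19 chaperone genes (27.5%), beside 30.7%; 14 of these were lower with melatonin and 5 higher, beside 15.9% and 14.8% of all genes. A positive fold change was seen for 28 chaperone genes (40.6%), beside 48.8%, and the median log2 fold change was -0.03, beside -0.01 over all tested genes. For 58 of 69 (84.1%), beside 70.1% of all genes, the 95% interval excluded a difference of 1 log2 unit. Class medians ran from -0.15 for HSP110, with all 3 genes negative, to 0.15 for the small HSPs, with 2 of 3 positive. Both mitochondrial chaperonin genes were also negative, with a median of -0.03.

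Hsp90aa1 had a log2 difference of -0.23 (SE 0.09, 95% interval -0.44 to -0.03) between melatonin and Sudan I, with an edgeR adjusted p of 0.994. It kept between -0.25 and -0.22 when any single library was left out. Hsp90ab1 had 0.02 (SE 0.10, 95% interval -0.20 to 0.24). Cct4 had -0.40 (SE 0.19, 95% interval -0.82 to 0.02), which came to -0.06 without Sudan I library 2. Dnajc15 had 0.47 (SE 0.24, 95% interval -0.06 to 0.99), and 0.23 without melatonin library 2. Hspa4l had -0.20 (SE 0.11), Hspa4 -0.15 (SE 0.09) and Dnajc10, a disulfide reductase of the endoplasmic reticulum at 86.6 to 101 CPM, -0.19 (SE 0.11). Hspa1b, highest in the Sudan I libraries, had -0.25 (SE 0.19, 95% interval -0.66 to 0.17). Dnajb13, known from the sperm axoneme and chosen here after its values were seen, was at 0.821 and 1.37 CPM in the control libraries, 1.42 and 0.766 in the Sudan I libraries and 2.42 and 2.45 in the melatonin libraries; its melatonin values were the highest, at a level near 1 CPM in the others.

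**Figure D5:**
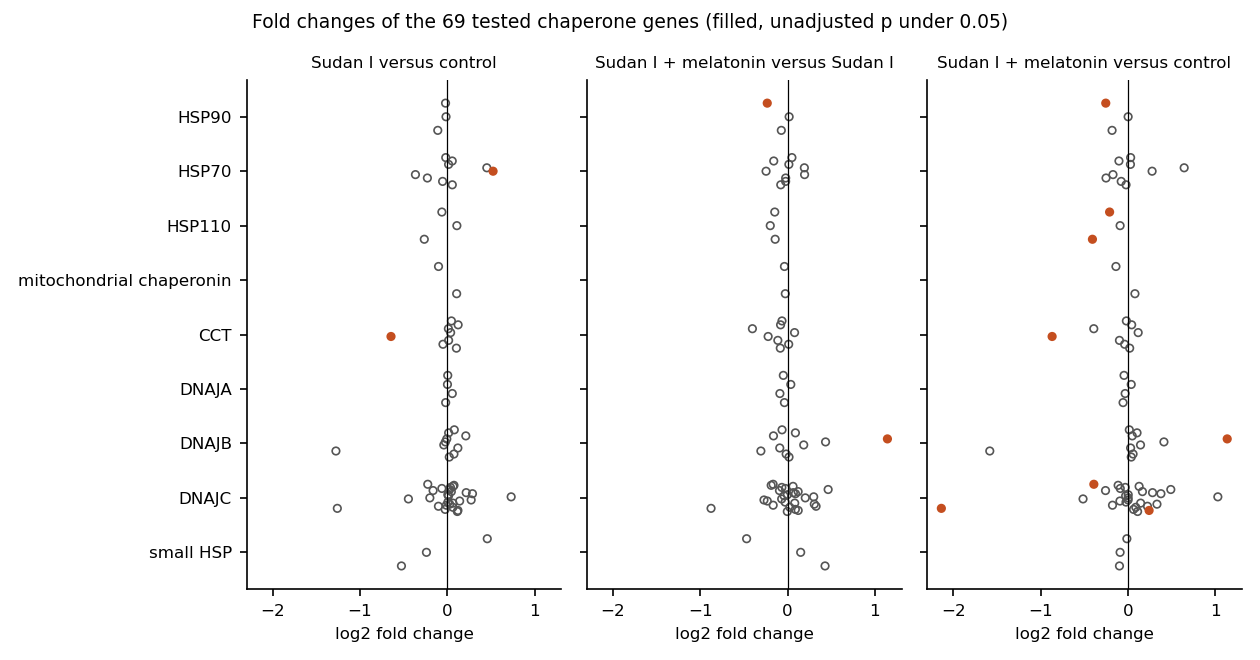
Log2 fold change (x axis) of the 69 tested chaperone genes by class (y axis) in the 3 comparisons. Filled points have an unadjusted p under 0.05: 2 genes, 2 genes and 8 genes from left to right. The comparisons share libraries pairwise and are not independent.

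The comparison of the melatonin group with control asks what differed from control oocytes when dye and melatonin were combined. It shares the control libraries with the Sudan I comparison and the melatonin libraries with the other, so its values stand beside theirs without independent weight. EdgeR called 0 of 69 chaperone genes, beside 1 of 14124 (0.00708%), and the smallest adjusted p of a chaperone gene was 0.956. Nor did DESeq2 or limma-voom call any. At an unadjusted p under 0.05 there were 8 chaperone genes (11.6%), 6 lower and 2 higher, beside 4.6% of all genes, 2.82% lower and 1.78% higher. The count fell when control library 2 or melatonin library 2 was left out, and the share of all genes in those fits was not computed. Libraries did not overlap for 28 chaperone genes (40.6%), 17 lower and 11 higher, beside 33.5% of all, 17% lower and 16.5% higher. Fold changes were positive for 35 (50.7%), beside 48.9%, and intervals lay within 1 log2 unit of 0 for 56 (81.2%), beside 68.9%. The median was 0.00 over the chaperone genes and -0.01 over all genes. Class medians ran from -0.21 for HSP110 and -0.18 for HSP90 to 0.06 for DNAJB, with 9 of 10 DNAJB genes positive.

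Cct6a had the smallest p, with a log2 difference of -0.87 (SE 0.21, 95% interval -1.34 to -0.39) and an edgeR adjusted p of 0.956, as for the genes that follow. Without control library 2 it was -0.55. Dnajc1 had -0.39 (SE 0.13, 95% interval -0.67 to -0.11), and -0.27 when control library 2 was left out. Hsp90aa1 had -0.25 (SE 0.09, 95% interval -0.46 to -0.05) and Hspa4 -0.21 (SE 0.09). Hsph1 had -0.41 (SE 0.15, 95% interval -0.74 to -0.07), which came to -0.13 without control library 2. On the higher side, Dnajc8 had 0.24 (SE 0.10, 95% interval 0.01 to 0.48), and 0.16 without melatonin library 2. Dnajc6, an auxilin that uncoats clathrin vesicles, named after its values were seen, was at 1.73 and 7.24 CPM in the control libraries, 2.18 and 1.58 in the Sudan I libraries and 0.543 and 1.47 in the melatonin libraries. Control library 2 was several times above every other library, and the fold change was -2.14 (SE 0.66, 95% interval -3.61 to -0.66).

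With no filter on low counts, 18913 rows were tested, and 3 chaperone genes then passed the edgeR test in melatonin versus control. They were Cct6a at -0.87 (adjusted p = 0.00923), Dnajc6 at -2.14 (adjusted p = 0.000405) and Hsph1 at -0.41 (adjusted p = 0.0485). That setting called 93 genes in all, against 1 with the filter, and 0 chaperone genes in the other comparisons. All 3 genes had their highest level in control library 2.

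Genes that work with these chaperones were listed beside them: heat shock factors, exchange factors and co-chaperones of HSP70, co-chaperones of HSP90, prefoldin with other CCT partners, and mitochondrial chaperones and proteases. Hspa5, left out of the 81 by the rule, was placed in the list for HSP70. Of 54 such genes 53 were tested, and 0 passed the edgeR threshold in any comparison. In Sudan I versus control 17 of 53 had a positive fold change, beside 49.4% of all genes, with a median of -0.03, and 1 had an unadjusted p under 0.05, beside 3.16% of all genes. This was Bag3, an exchange factor of HSP70 in selective autophagy, at 1.87 and 1.87 CPM in the control libraries, 0.670 and 0.271 in the Sudan I libraries and 0.395 and 2.61 in the melatonin libraries, with a log2 difference of -1.97 (SE 0.79). Hsf1 was at 127 and 129 CPM in the control libraries, 127 and 123 in the Sudan I libraries and 126 and 112 in the melatonin libraries, both controls being above the other 4 libraries, at the closest by a narrow margin. Hspa5, the HSP70 of the endoplasmic reticulum, was at 366 and 382 CPM in the control libraries, 364 and 339 in the Sudan I libraries and 338 and 422 in the melatonin libraries.

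Between melatonin and Sudan I, 36 of the 53 had a positive fold change, beside 48.8% of all tested genes, with a median of 0.07, beside -0.01. The list of 14 exchange factors and co-chaperones of HSP70, which includes Hspa5, had 13 positive and a median of 0.11. The 10 prefoldin and CCT partners had 8 positive and a median of 0.18. Of the 8 CCT subunits 2 were positive, with a median of -0.08, and no difference between these lists was tested. None of these genes had an unadjusted p under 0.05 except Chordc1, an HSP90 co-chaperone, at 60.6 and 57.7 CPM in the control libraries, 57.8 and 60.1 in the Sudan I libraries and 49.4 and 44.0 in the melatonin libraries, with a log2 difference of -0.34 (SE 0.13) from Sudan I. Its melatonin libraries lay below the other 4, as those of Hsp90aa1 did. Stip1, which links HSP70 to HSP90, was at 363 and 368 CPM in the control libraries, 364 and 399 in the Sudan I libraries and 383 and 408 in the melatonin libraries. In melatonin versus control, 33 of 53 were positive, beside 48.9% of all genes, and the median was 0.05.

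The chaperone extremes were spread over all libraries, with melatonin library 2 holding the most. It was the highest of the 6 libraries for 21 of 69 chaperone genes (30.4%), beside 23.2% of all tested genes. Melatonin library 1 was the lowest for 18 (26.1%), beside 19.2%. Control library 2 was highest for 14 (20.3%), beside 19.4%.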

How the data were processed

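The authors deposited 1 table of raw read counts per gene symbol, with 1 column for each of the 6 libraries; the labels' protocols state a standard Illumina library, and the aligner, counting program, genome build, annotation and library strand are each not given in the labels or other sources used here. Symbols had turned into dates in 27 rows (0.256% of counts). Rows were kept by filterByExpr (minimum count 10), scaled by trimmed mean of M-values, and fitted over all 6 libraries with edgeR 4.0.16 in R 4.3.3 (quasi-likelihood F test, 3 residual degrees of freedom, common biological coefficient of variation 0.167), with Benjamini-Hochberg adjustment over 14124 rows. DESeq2 1.42.0 and limma-voom (limma 3.58.1) were alternatives.

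CPM is a count scaled to the counts of tested genes times the scaling factor. The ± values are SDs over libraries. Symbols were matched to GENCODE M21 for lengths and overlaps, and all 81 chaperone genes matched. Up to 6 chaperone genes per comparison, those with the smallest p at a mean of at least 5 CPM, were named, beside 30 core genes named whatever their values and the leading gene of each class. The members and lists were chosen with earlier results of these data known. Depth of 20669373 to 26065453 counts sets the precision; a gene at 0 counts may hold up to 3 counts.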

Additional observations from a re-analysis of the deposited data

How the results depend on the processing

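Over 14 alternatives, 251 of 252 recomputed log2 fold changes of named chaperone genes had the same sign and 249 also the same side of the threshold. The exception in sign was Hsph1 in Sudan I versus control, from -0.50 without control library 1 to 0.015 without control library 2, and the cause of the 2 that passed with no count filter (Cct6a at -0.87 and Hsph1 at -0.41, melatonin versus control) was not tested. DESeq2 called 11, 9 and 12 genes of all in Sudan I versus control, melatonin versus Sudan I and melatonin versus control, and no count filter gave 88, 67 and 93, against 1, 0 and 1. With no count filter 3 chaperone genes passed in melatonin versus control, and 4 had an unadjusted p under 0.05 in each of the other comparisons, against 2 and 2. When 1 library was left out, the genes called ran from 1 to 4, 0 to 1 and 1 to 3 in that order, and chaperone genes at an unadjusted p under 0.05 from 0 to 4, 0 to 2 and 3 to 8, against 2, 2 and 8. No chaperone gene passed in any of these. The group left with 1 library was assumed to vary like the others. Medians over the chaperone genes stayed near 0 throughout, from -0.0045 to 0.030 in Sudan I versus control. Library totals or relative log expression factors in place of trimmed means, limma-voom, and fits of 2 groups changed no count of calls by over 1.5 times. The replicate numbers of the sample titles gave no sign of pairing (correlation of deviations 0.05, 0.03 and 0.08 in the 3 comparisons). The table's headers also carry tube codes whose numbers differ from the titles' for some libraries, and these were not used for pairing. With the number as a replicate block, 1, 0 and 1 genes and 0 chaperone genes were called. In that fit 2, 3 and 9 chaperone genes had an unadjusted p under 0.05, and Cct6a in melatonin versus control was at -0.85. Shares of all genes at an unadjusted p under 0.05 were computed for the main fit only. Depth limits the scarce genes: in Sudan I versus control the SE was 0.50 for Dnajb13, near 1 CPM, and 0.09 for Hsp90aa1.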
